A study of Mus musculus with 9 samples.

Results

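The 40 genes described here encode the scaffold of the sarcomere, the contractile unit of striated muscle: giant filament proteins, proteins of the Z-disc and M-band, myosin-binding proteins, proteins at the ends of the thin filament, the intermediate filament proteins desmin and synemin, and myosin chaperones. They were chosen by gene symbol, and all 40 were found among the 32594 genes of the count table. The libraries came from hindlimb skeletal muscle of FVB/N mice, 5 of wild type and 4 of SMN delta 7 mice, called SMA here. The SMN delta 7 mouse models spinal muscular atrophy, in which a shortage of survival motor neuron protein leads to loss of motor neurons and muscle wasting. The sources used here do not give age, the alleles behind the model name or whether each replicate was a separate animal, so a p-value here refers only to how these samples spread, and that spread may be partly technical.

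In each sarcomere the thin actin filaments are anchored at the Z-disc, where alpha-actinin crosslinks them, and the thick myosin filaments are held in register at the M-band by myomesins. Titin spans from Z-disc to M-band and nebulin runs along the thin filament. Several of these proteins come in forms that differ between fast muscle and slow or cardiac muscle. Alpha-actinin 3 is a form of fast fibres, while alpha-actinin 2 is present in all striated muscle. Some Z-disc proteins also take part in sensing stretch.

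The upstream sequences of 5 members are shown because these genes moved in both directions in SMA and hold short motifs that muscle regulators are known to bind. Each is the stretch of 250 bases that ends just before the gene start in RefSeq (GRCm38.p6, the same assembly as the mm10 build of the counts), 5′ to 3′ on the gene's strand, and RefSeq starts can differ from the annotated gene ends given further on. Capitals mark matches, on either strand, to the E-box CAGCTG, the MCAT motif CATTCC, the CArG box or the MEF2 site, and the marked matches do not overlap.
Myoz2 chr3:123034988-123035237 (minus strand): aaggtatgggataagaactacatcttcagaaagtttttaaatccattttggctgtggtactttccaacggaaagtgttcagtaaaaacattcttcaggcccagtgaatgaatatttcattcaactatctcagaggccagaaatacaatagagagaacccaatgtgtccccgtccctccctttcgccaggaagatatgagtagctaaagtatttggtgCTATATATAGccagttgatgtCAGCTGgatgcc
Myom3 chr4:135759465-135759714 (plus strand): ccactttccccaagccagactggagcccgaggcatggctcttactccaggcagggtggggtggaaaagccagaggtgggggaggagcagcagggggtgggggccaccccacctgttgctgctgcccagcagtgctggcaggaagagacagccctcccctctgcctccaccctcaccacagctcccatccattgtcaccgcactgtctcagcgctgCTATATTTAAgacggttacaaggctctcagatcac
Mybpc1 chr10:88605153-88605402 (minus strand): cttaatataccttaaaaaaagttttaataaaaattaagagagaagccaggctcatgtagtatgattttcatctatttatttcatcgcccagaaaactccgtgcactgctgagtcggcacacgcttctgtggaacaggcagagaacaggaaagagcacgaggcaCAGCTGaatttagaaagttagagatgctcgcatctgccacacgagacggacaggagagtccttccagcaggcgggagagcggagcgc
Xirp2 chr2:67445752-67446001 (plus strand): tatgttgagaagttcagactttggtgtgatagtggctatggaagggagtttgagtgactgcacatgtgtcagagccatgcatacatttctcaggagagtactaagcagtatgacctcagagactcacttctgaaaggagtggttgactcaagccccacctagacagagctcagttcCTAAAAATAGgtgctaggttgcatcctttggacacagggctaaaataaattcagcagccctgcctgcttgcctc
Mybpc2 chr7:44524670-44524919 (minus strand): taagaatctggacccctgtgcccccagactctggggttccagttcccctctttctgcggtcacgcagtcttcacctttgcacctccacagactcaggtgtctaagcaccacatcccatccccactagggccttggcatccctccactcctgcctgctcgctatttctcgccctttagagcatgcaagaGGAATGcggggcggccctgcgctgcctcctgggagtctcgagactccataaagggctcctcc
Myoz2, Myom3 and Mybpc1 rose in SMA, and Xirp2 and Mybpc2 fell. The MEF2 site began 33 bases before the start of Myoz2, 35 before that of Myom3 and 74 before that of Xirp2, so it was present in genes of either direction. Myoz2 also held an E-box, 12 bases before its start, and Mybpc1 held 1 at 87 bases. Mybpc2 held an MCAT motif 62 bases before its start. These are letter matches and not measured binding sites. The RefSeq table held 38 promoter windows for 31 of the 40 members, each of 300 bases, of which 50 lie after the start. A MEF2 site occurred in 15.8% of the 38 windows and in 3.19% of all 32851 windows of that length in the table. The former were 6 windows of 5 genes, with Synpo2l counted in 2 of them. A CArG box occurred in 10.5% of the members' windows against 1.63% of all windows. The former were 4 windows of 3 genes, and the 2 windows of Ldb3 overlap and hold the same match. For the MCAT motif the shares were 26.3% and 14.7%, and for the E-box 23.7% and 16.3%. By direction, an MCAT motif was present in 6 of the 14 genes with a window that fell and in 0 of the 9 that rose. Among the 8 that did not pass it was present in 2. A MEF2 site was present in 2 that fell, 2 that rose and 1 that did not pass. For the E-box these numbers were 2, 3 and 4, and for the CArG box 1, 1 and 1. The numbers are small, and no difference by direction was tested.

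Levels are given in CPM, counts scaled so that each library's effective total is 1000000. Each member's test comes from 1 edgeR quasi-likelihood fit over all 15873 genes tested, with p-values adjusted by Benjamini and Hochberg's method and a threshold of 0.05. Library totals ranged from 24917665 to 35087722 counts, and the lowest count of any member in any library was 140. Smn1, the gene for survival motor neuron protein, checked the labels: it lay between 11.1 and 13.8 CPM in wild type and between 1.40 and 2.72 CPM in SMA. Expression matched the labelled tissue, since the summed level of 12 skeletal muscle genes was 135200 to 191600 CPM in wild type and 75900 to 91920 CPM in SMA. SMA 3 stood apart on the second principal component, which held 9.92% of the variance, at -43.4 against 14.6 to 15.4 for the other SMA libraries. It was the lowest SMA library for 29 of the 40 members, and wild type 5 was the highest wild type library for 22, so counts are also given without them. In bulk tissue, fewer muscle fibres and less RNA of a gene per fibre cannot be told apart.

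More of the scaffold genes fell than rose in SMA. Among the 40 members 20 fell, 10 rose and 10 did not pass. Over all genes tested 54.9% passed, with 27.2% lower and 27.7% higher in SMA, and the median log2 fold change was 0.006 against -0.29 for the members. At least a 2-fold change was seen for 9 members that fell and 3 that rose, where 6.28% and 8.27% of all genes did so. The libraries of the 2 groups did not overlap for 23 members, where 44.2% of all genes were separate in this way. These were 16 members lower in SMA, against 21.7% of all genes, and 7 members higher in SMA, against 22.6%. The 40 genes were also summed as a share of each library's total counts, a measure in which the most abundant genes weigh most. This share was 4.47%, 3.90%, 4.32%, 3.91% and 4.55% in wild type 1 to 5. In SMA 1 to 4 it was 3.26%, 3.35%, 2.92% and 3.26%. Every SMA library thus lay below every wild type library.

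Markers of other cell types in the muscle differed between the groups as well. All 5 Schwann cell genes were higher in SMA, with a summed level of 377.9 to 877 CPM in wild type and 980.8 to 2218 CPM in SMA. Of 6 fibroblast genes 5 were lower and 1 higher, with sums of 4063 to 7883 CPM and 2264 to 3482 CPM. Among 6 macrophage genes 4 were lower (79.0 to 117 CPM and 68.2 to 87.1 CPM). Among 6 adipocyte genes 3 were lower and 1 higher (314 to 728 CPM and 526 to 663 CPM). Most of the adipocyte sum was Fabp4, which rose. Ucp1, Lep and Plin1 fell, with Ucp1 at 11.3 to 119 CPM in wild type and 0.315 to 1.93 CPM in SMA. Wild type 5 was the highest library for these 3, and Adipoq and Cfd did not pass. Of 5 endothelial genes 1 was lower (537 to 671 CPM and 535 to 629 CPM). The part of these cell types in the members' changes was not tested.

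The balance of calls depended on how libraries were scaled. With libraries scaled to total counts alone, the median of all genes moved by 0.23 on the log2 scale and 14 members fell while 18 rose, so that 56.2% of the member calls were rises against 33.3%. Over all genes the same scaling gave 6385 that rose and 2164 that fell, so that rises made up 74.7% of all calls against 50.4%. The falls of Lmod3, Myom2, Myoz1, Tmod1, Tmod4 and Unc45b were then lost, and Ankrd1, Des, Flnc, Myom1, Myot, Nrap, Pdlim5 and Xirp1 passed as higher. Without SMA 3, 20 members fell and 13 rose, where 4547 of all genes fell and 4535 rose. Without both SMA 3 and wild type 5 the numbers were 20 and 14 members, and 4721 and 4701 of all genes. In the main analysis 4319 of all genes fell and 4393 rose. Across the main analysis and its 18 alternatives, 14 members fell and 9 rose every time. The share of all genes that kept their call every time was not counted.

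**Figure D1:**
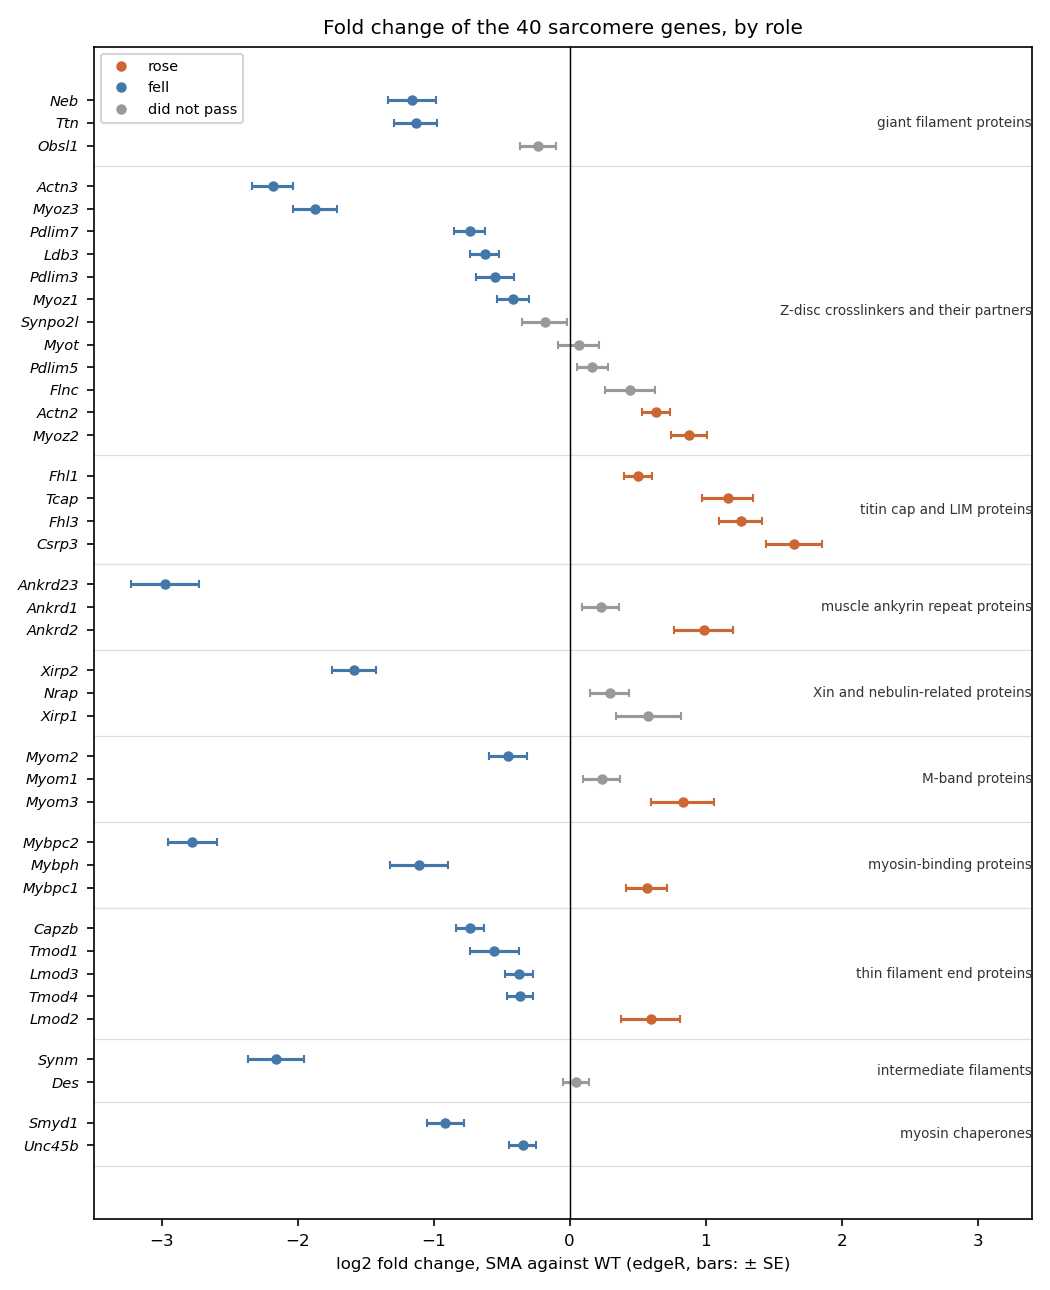
Log2 fold change of each of the 40 genes in SMA against wild type (horizontal axis, edgeR, bars ± SE), grouped by role; orange genes rose, blue genes fell and grey genes did not pass. Values run from -2.98 for Ankrd23 to 1.65 for Csrp3, and 5 of the 10 roles hold genes of both colours.

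Titin and nebulin, the giant proteins that set the length and elasticity of the filaments, fell by similar amounts. Ttn (chromosome 2, 76703980 to 76982547, minus strand) measured 8234, 6683, 8885, 7214 and 10218 CPM in wild type 1 to 5 and 3966, 4069.9, 2904 and 4113 CPM in SMA 1 to 4. All SMA libraries were below all wild type libraries, and SMA 3 was the lowest. Its log2 fold change was -1.13 ± 0.16 (SE), or 2.19-fold lower (adjusted p = 8.95e-05 by edgeR). Neb (chromosome 2, 52136647 to 52378474, minus strand) measured 4214, 3096, 4137, 3328 and 5376 CPM in wild type 1 to 5 and 1955, 1935, 1359 and 1974 CPM in SMA 1 to 4. Here too the groups were separate and SMA 3 lay below the other SMA libraries. Neb fell by 1.16 ± 0.18 on the log2 scale (adjusted p = 1.82e-04 by edgeR). Titin transcripts alone made up 0.689% to 0.846% of all counts in wild type and 0.338% to 0.449% in SMA. Obsl1, which encodes a cytoskeletal adaptor related to obscurin, went from 246 ± 25.1 to 209.7 ± 41.7 CPM (SD, n = 5 and 4) and did not pass, with a log2 fold change of -0.23 ± 0.13.

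The 2 alpha-actinins, which crosslink actin filaments at the Z-disc, moved in opposite directions. Actn3, the form of fast glycolytic fibres (chromosome 19, 4861216 to 4877909, minus strand), measured 5577, 4008, 5216, 4904 and 6415 CPM in wild type 1 to 5 and 999.9, 1125, 1194 and 1276 CPM in SMA 1 to 4. Its highest SMA library was far below its lowest wild type library. Actn3 fell by 2.19 ± 0.15 on the log2 scale, or 4.55-fold (adjusted p = 4.39e-07 by edgeR). Actn2, the form present in all striated muscle (chromosome 13, 12269426 to 12340760, minus strand), measured 1681, 1464, 1578, 1357 and 1447 CPM in wild type 1 to 5 and 2428, 2556, 2163 and 2206 CPM in SMA 1 to 4. Every SMA library was above every wild type library, a rise of 0.64 ± 0.10 on the log2 scale, or 1.55-fold (adjusted p = 2.43e-04 by edgeR). Per kilobase of its longest coding transcript, Actn3 had the highest level of all 40 members in wild type, 1809 ± 306 CPM per kilobase, and ranked 7 in SMA at 398 ± 40.4. On the same scale Actn2 went from rank 6, with 499.6 ± 41.7, to rank 3, with 776 ± 61.7.

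Counted within each library, the ratio of length-scaled Actn3 to Actn2 counts was 3.46, 2.86, 3.45, 3.77 and 4.63 in wild type 1 to 5 and 0.430, 0.460, 0.576 and 0.604 in SMA 1 to 4. Actn3 thus exceeded Actn2 in every wild type library and was below it in every SMA library. The mean log2 ratio of their counts went from 1.78 ± 0.25 to -1.03 ± 0.24 (SD, n = 5 and 4; two-sided exact permutation test over all divisions of the 9 libraries, exact p = 0.00794, adjusted p = 0.0111 over the 7 pairs). An exact p of 0.00794 is the smallest that these divisions can give. The 7 pairs were chosen with earlier results of these data known, which the adjustment over 7 pairs does not account for. The ratio tests are thus not independent of the fold changes of their genes.

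Myozenins (calsarcins) tether calcineurin to alpha-actinin at the Z-disc, and they divided by fibre type. Myoz2, the form of slow and cardiac muscle (chromosome 3, 123006206 to 123035015, minus strand), measured 125.6, 145, 112, 115 and 83.3 CPM in wild type 1 to 5 and 233, 216, 206 and 198 CPM in SMA 1 to 4, with no overlap between groups. It rose by 0.88 ± 0.13 on the log2 scale (adjusted p = 1.68e-04 by edgeR). The fast-fibre form Myoz3 measured 208, 155, 199, 188 and 282 CPM in wild type 1 to 5 and 52.1, 61.0, 48.4 and 64.0 CPM in SMA 1 to 4, also without overlap but in the other direction. Its fall was 1.87 ± 0.16 on the log2 scale, or 3.66-fold (adjusted p = 2.35e-06 by edgeR). Myoz1, the most abundant of the 3 and also of fast fibres, went from 1908 ± 273 to 1432 ± 71.0 CPM (SD, n = 5 and 4), a fall of 0.41 ± 0.12 on the log2 scale. Only SMA 1, at the level of wild type 2, was not below all of wild type. The fall of Myoz1 was lost with sex as a covariate (adjusted p = 0.0544 by edgeR) and with scaling to total counts (0.107). The length-scaled ratio of Myoz1 to Myoz2 was 14.5, 9.66, 14.9, 15.2 and 25.1 in wild type 1 to 5 and 6.01, 5.92, 6.37 and 6.33 in SMA 1 to 4, so that Myoz1 stayed the more abundant everywhere while every SMA library lay below every wild type library. The mean log2 count ratio went from 4.05 ± 0.49 to 2.75 ± 0.053 (exact p = 0.0159, adjusted p = 0.0185 over the 7 pairs).

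Other Z-disc partners of alpha-actinin fell or did not pass. Ldb3, whose PDZ and LIM protein stabilises the Z-disc, went from 1792 ± 198 to 1161 ± 76.1 CPM (SD, n = 5 and 4), a fall of 0.63 ± 0.11 on the log2 scale. The related PDZ and LIM genes Pdlim7 and Pdlim3 fell by 0.74 ± 0.12 and 0.55 ± 0.14, each without overlap between groups, while Pdlim5 had a log2 fold change of 0.17 ± 0.12 and did not pass. Pdlim5 passed as higher without wild type 5 (0.25, adjusted p = 0.0498 by edgeR) and without both wild type 5 and SMA 3 (0.30, adjusted p = 0.0183 by edgeR). The adjusted p-values by edgeR were 4.22e-04 for Ldb3, 2.35e-04 for Pdlim7 and 0.00484 for Pdlim3. Myot, which encodes the actin-bundling protein myotilin, went from 714 ± 155 to 747 ± 94.5 CPM and did not pass, with a log2 fold change of 0.066 ± 0.15, and for Myot this value was -0.012 without wild type 2. Synpo2l, a Z-disc gene of the synaptopodin family, did not pass either, with a log2 fold change of -0.18 ± 0.17 that became 0.053 under scaling to total counts.

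Flnc, the muscle filamin that links the Z-disc to the membrane, measured 767, 542, 662, 478 and 524 CPM in wild type 1 to 5 and 837, 928, 524 and 946 CPM in SMA 1 to 4. SMA 3 lay within the wild type range while SMA 1, 2 and 4 were above it. The log2 fold change was 0.44 ± 0.18 (adjusted p = 0.0570 by edgeR), and without SMA 3 it was 0.60 with an adjusted p of 0.00418. It also passed in DESeq2 (adjusted p = 0.0306), with a stricter low-count filter (0.0491 by edgeR) and without wild type 1 (0.0261 by edgeR).

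Tcap, for the titin cap, and the LIM-only genes Csrp3, Fhl1 and Fhl3 rose, where Ttn fell and 3 of the PDZ and LIM genes fell. None of the 4 overlapped between groups. Csrp3, the muscle LIM protein that is thought to take part in stretch sensing (chromosome 7, 48830398 to 48848033, minus strand), measured 44.1, 65.6, 43.4, 37.7 and 31.2 CPM in wild type 1 to 5 and 123, 133, 190.4 and 111 CPM in SMA 1 to 4. SMA 3 was the highest library here, unlike for most members. Csrp3 rose by 1.65 ± 0.20 on the log2 scale, or 3.14-fold, which was the largest rise among the 40 (adjusted p = 3.67e-05 by edgeR). Tcap, or telethonin, which caps the Z-disc end of titin (chromosome 11, 98383811 to 98384953, plus strand), measured 362, 438, 265, 413 and 320 CPM in wild type 1 to 5 and 963, 912, 519 and 826 CPM in SMA 1 to 4. SMA 3 was the lowest SMA library but still above all of wild type. Tcap rose by 1.16 ± 0.19 on the log2 scale, or 2.24-fold, while Ttn was 2.19-fold lower (adjusted p for Tcap = 2.61e-04 by edgeR). Fhl3, a four-and-a-half LIM domain gene (chromosome 4, 124700701 to 124708611, plus strand), measured 46.9, 43.8, 42.1, 40.4 and 48.9 CPM in wild type 1 to 5 and 138, 120, 70.1 and 97.3 CPM in SMA 1 to 4. Wild type libraries were within 8.5 CPM of each other, and the SMA libraries were spread more widely above them. Its log2 fold change was 1.26 ± 0.16 (adjusted p = 4.16e-05 by edgeR). The abundant relative Fhl1 went from 1071 ± 98.0 to 1517 ± 121 CPM (SD, n = 5 and 4), a rise of 0.50 ± 0.10 on the log2 scale (adjusted p = 0.00120 by edgeR).

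Genes of heart muscle were also higher in SMA, at low levels. Of 7 cardiac marker genes, 5 were tested and all 5 rose, and the summed level of the 7 was 25.9 to 45.4 CPM in wild type and 58.9 to 87.8 CPM in SMA. Myh6, the atrial myosin chain, made up most of that sum, with 21.7 to 41.4 CPM and 48.4 to 63.7 CPM. The defining atrial light chain gene Myl7 stayed at or below 0.561 CPM and the natriuretic peptide gene Nppb at or below 0.702 CPM in every library. Several members that rose, among them Actn2, Myoz2, Csrp3 and Lmod2, are also genes of heart muscle. Not all such members rose. Ankrd1, the cardiac ankyrin repeat protein, did not pass, and Ttn, whose protein is part of each sarcomere, fell. The part of the cardiac markers in these changes was not tested.

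**Figure D2:**
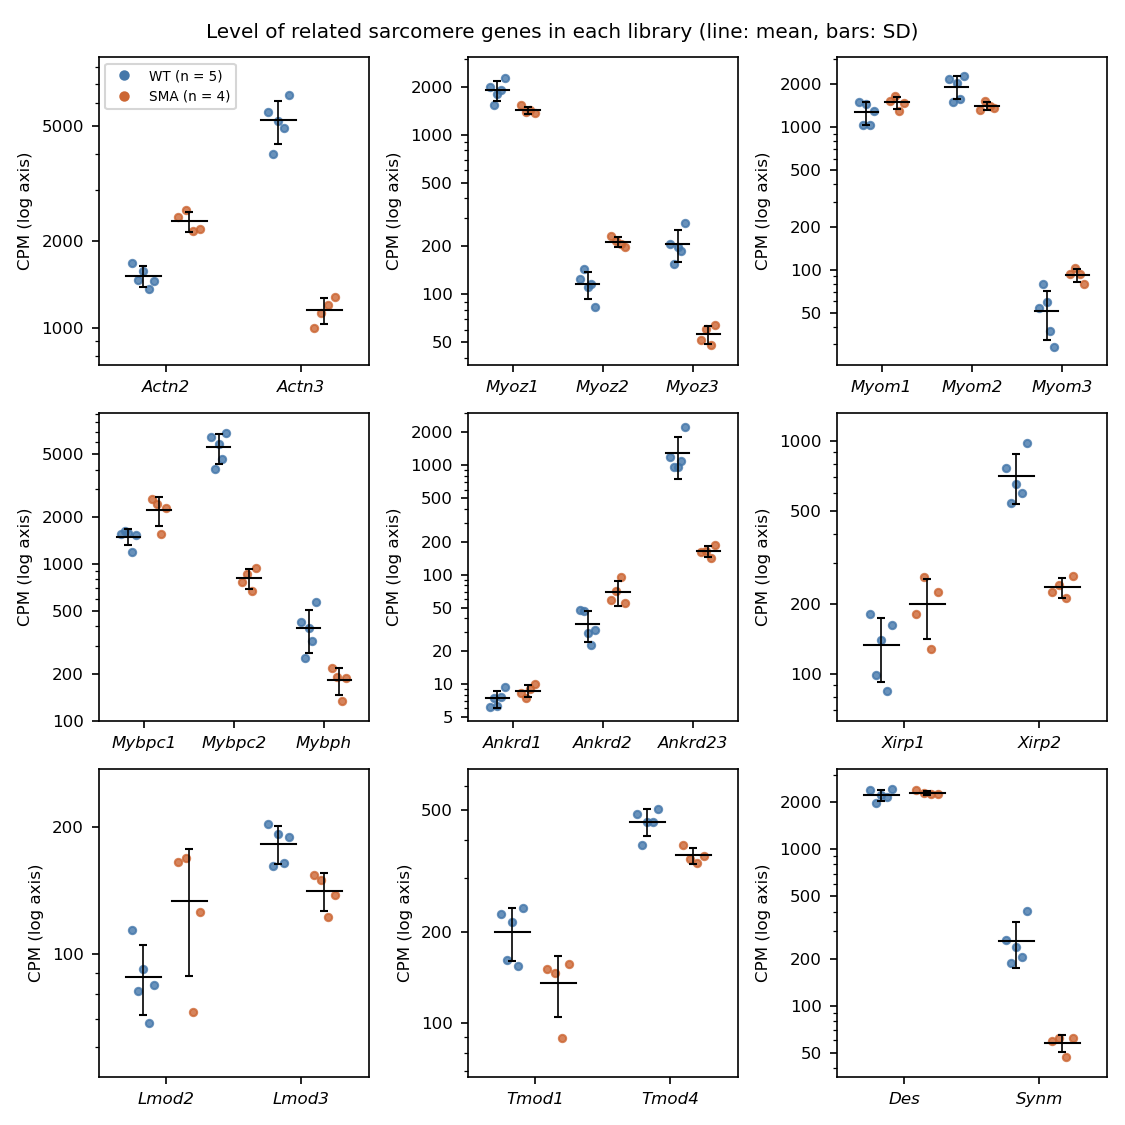
Level of related genes in each library, in CPM on a log axis, with blue points for the 5 wild type and orange points for the 4 SMA libraries, the mean as a line and the SD as bars. Actn2, Myoz2 and Mybpc1 lie higher in SMA while Actn3, Myoz3 and Mybpc2 lie lower, and the points of Des overlap where those of Synm are separate.

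The muscle ankyrin repeat proteins bind the elastic part of titin and are known for responding to stretch and injury, and of their 3 genes 1 rose, 1 fell and 1 did not pass. Ankrd23 (chromosome 1, 36530188 to 36536883, minus strand) measured 1187, 959.6, 969, 1104 and 2233 CPM in wild type 1 to 5 and 163, 165, 141 and 186 CPM in SMA 1 to 4. It was the most decreased of the 40 members, and wild type 5 lay well above the other wild type libraries. The fall was 2.98 ± 0.25 on the log2 scale, or 7.87-fold (adjusted p = 2.16e-06 by edgeR), and 2.69 without wild type 5. Ankrd2, known from slow fibres, measured 47.4, 46.4, 29.0, 22.9 and 31.2 CPM in wild type 1 to 5 and 58.3, 71.3, 95.1 and 55.4 CPM in SMA 1 to 4, with every SMA library above wild type. It rose by 0.98 ± 0.22 on the log2 scale (adjusted p = 0.00239 by edgeR). Ankrd1, the cardiac ankyrin repeat protein, was the least abundant member per kilobase and went from 7.40 ± 1.34 to 8.68 ± 1.09 CPM (SD, n = 5 and 4). Its log2 fold change of 0.23 ± 0.14 did not pass, and it passed without wild type 5 (adjusted p = 0.0356 by edgeR). Per kilobase, Ankrd23 ranked 5 among the members in wild type with 567 ± 235 CPM per kilobase, and stood at 72.0 ± 8.04 in SMA.

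Xin proteins and nebulin-related anchoring protein are found where the last Z-disc meets the membrane at muscle ends and cell junctions. Xirp2 (chromosome 2, 67446002 to 67526614, plus strand) measured 766, 542, 653, 599 and 976 CPM in wild type 1 to 5 and 226, 241, 211 and 264 CPM in SMA 1 to 4. No SMA library reached the wild type range. Xirp2 fell by 1.59 ± 0.16 on the log2 scale, or 3.004-fold (adjusted p = 9.15e-06 by edgeR). Xirp1, a gene also known from repair of damaged muscle, measured 181, 99.2, 140.4, 84.6 and 162 CPM in wild type 1 to 5 and 180.5, 262, 128 and 226 CPM in SMA 1 to 4, with overlapping groups. Its log2 fold change of 0.58 ± 0.24 did not pass (adjusted p = 0.0573 by edgeR), and was 0.74 without SMA 3 with an adjusted p of 0.0137. It passed as well without wild type 1 (0.0296) or wild type 5 (0.0463), with a stricter low-count filter (0.0495) and in DESeq2 (0.0282). The length-scaled ratio of Xirp1 to Xirp2 was 0.485, 0.376, 0.441, 0.290 and 0.340 in wild type 1 to 5 and 1.64, 2.23, 1.24 and 1.76 in SMA 1 to 4. Xirp1 was below Xirp2 in every wild type library and above it in every SMA library. The mean log2 count ratio went from -2.43 ± 0.29 to -0.29 ± 0.35 (exact permutation test, exact p = 0.00794, adjusted p = 0.0111 over the 7 pairs). Nrap went from 826 ± 113 to 1014 ± 188 CPM (SD, n = 5 and 4) and did not pass, with a log2 fold change of 0.30 ± 0.14, while without SMA 3 it was 0.42 with an adjusted p of 0.0103 by edgeR.

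Myomesins bridge the thick filaments at the M-band, and of their 3 genes 1 rose, 1 fell and 1 did not pass. Myom3, a minor form known from slow and intermediate fibres (chromosome 4, 135759715 to 135815564, plus strand), measured 54.1, 79.2, 59.6, 37.0 and 28.8 CPM in wild type 1 to 5 and 93.4, 103, 93.0 and 78.9 CPM in SMA 1 to 4. SMA 4 lay just below the highest wild type library, so the groups overlapped. It rose by 0.83 ± 0.23 on the log2 scale (adjusted p = 0.00902 by edgeR). Myom2, the M-protein of fast fibres, measured 2173, 1507, 2049, 1589.7 and 2303 CPM in wild type 1 to 5 and 1312, 1531, 1409 and 1370 CPM in SMA 1 to 4. SMA 2 lay just above wild type 2 and the other SMA libraries below all of wild type. Myom2 fell by 0.45 ± 0.14 on the log2 scale (adjusted p = 0.0147 by edgeR), a call that was lost with sex as a covariate (0.0575) and with scaling to total counts (0.109). Myom1, the myomesin of all striated muscle, had a log2 fold change of 0.24 ± 0.14 and did not pass, from 1269 ± 226 to 1494 ± 147 CPM. Some of its exons overlap those of Myl12a on the other strand, which went from 238 to 358 CPM, and no source used here states how strand was treated in counting. The length-scaled ratio of Myom2 to Myom1 was 1.60, 1.62, 1.56, 1.71 and 1.96 in wild type 1 to 5 and 0.961, 1.03, 1.201 and 1.02 in SMA 1 to 4, so Myom2 exceeded Myom1 in every wild type library and the 2 were close in SMA. The mean log2 count ratio went from 0.60 ± 0.13 to -0.085 ± 0.14 (exact p = 0.00794, adjusted p = 0.0111 over the 7 pairs).

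Myosin-binding proteins C lie along the thick filament and tune how myosin heads meet actin. Mybpc2, the fast form (chromosome 7, 44501699 to 44524656, minus strand), measured 6412, 4022, 5806, 4641 and 6807 CPM in wild type 1 to 5 and 765, 862, 668 and 941 CPM in SMA 1 to 4. Every SMA library was far below the lowest wild type library, and SMA 3 was the lowest. Mybpc2 fell by 2.77 ± 0.18 on the log2 scale, or 6.84-fold (adjusted p = 3.62e-07 by edgeR). Mybpc1, named the slow form (chromosome 10, 88518279 to 88605152, minus strand), measured 1564, 1612, 1566, 1199 and 1538 CPM in wild type 1 to 5 and 2612, 2420.3, 1562 and 2264 CPM in SMA 1 to 4. SMA 3 lay among the wild type libraries and the other SMA libraries above them. Mybpc1 rose by 0.57 ± 0.15 on the log2 scale (adjusted p = 0.00670 by edgeR). Between them the length-scaled ratio of Mybpc2 to Mybpc1 was 4.45, 2.71, 4.03, 4.20 and 4.81 in wild type 1 to 5 and 0.318, 0.387, 0.465 and 0.451 in SMA 1 to 4. Mybpc2 led in every wild type library and Mybpc1 in every SMA library. In wild type the mean of Mybpc1, 1496 CPM, was above that of the slow myosin gene Myh7, 611 CPM. Whether this change of lead reflects fibre type was not tested. Among the alpha-actinins the lead likewise passed from Actn3 to Actn2, though Actn2 is present in all striated muscle and is not a slow form. The mean log2 count ratio went from 1.87 ± 0.32 to -1.44 ± 0.25 (exact permutation test, exact p = 0.00794, adjusted p = 0.0111 over the 7 pairs), the widest change of the 7 ratios. Mybph, a shorter relative, went from 392 ± 119.9 to 182 ± 34.9 CPM (SD, n = 5 and 4), a fall of 1.11 ± 0.21 on the log2 scale (adjusted p = 9.58e-04 by edgeR). Its exons overlap those of Adora1 on the other strand, which went from 59.7 to 36.1 CPM. Exon overlaps on the other strand also exist for Nrap, Tmod1, Des, Synm and Unc45b, with partners at 10.2 CPM or less in both groups.

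**Figure D3:**
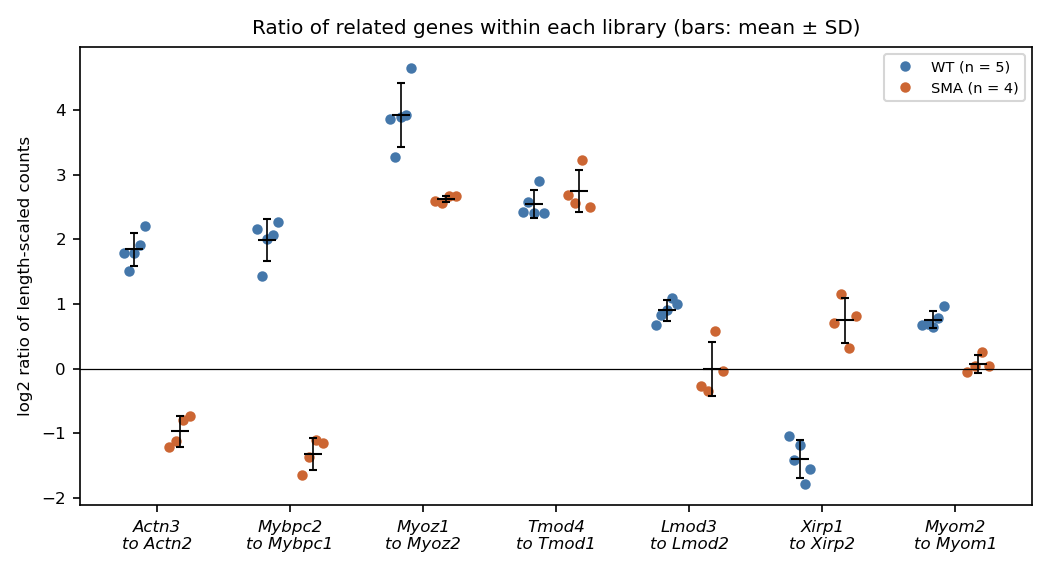
Log2 ratio of length-scaled counts of related genes within each library, with blue points for wild type, orange points for SMA and bars for the mean ± SD. The ratios Actn3 to Actn2, Mybpc2 to Mybpc1 and Xirp1 to Xirp2 lie on opposite sides of 0 in the 2 groups, and Tmod4 to Tmod1 overlaps between them.

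Markers of fibre type were measured in the same libraries, and none of them is among the 40. Of 9 fast-fibre genes 7 were lower and 0 higher past the threshold, and of 8 slow-fibre genes 2 were higher, 0 lower and 6 did not pass. The summed level of the fast markers was 134500 to 190500 CPM in wild type and 66600 to 76110 CPM in SMA. For the slow markers it was 950.8 to 2706 CPM and 1793 to 2315 CPM, with every SMA library inside the wild type range. Their part in the shift of the sarcomere forms was not tested.

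Of the 5 genes for proteins at the ends of the thin filament 4 fell and Lmod2, for leiomodin 2, rose. Capzb, the beta subunit of the capping protein CapZ at the Z-disc end, went from 373 ± 43.1 to 225 ± 15.0 CPM (SD, n = 5 and 4), a fall of 0.73 ± 0.10 on the log2 scale without overlap (adjusted p = 9.10e-05 by edgeR). Tropomodulins cap the other end, and Tmod4 and Tmod1 fell by 0.37 ± 0.096 and 0.55 ± 0.18 on the log2 scale (adjusted p = 0.00665 and 0.0199 by edgeR). Tmod1 measured 228, 162, 216, 154 and 239 CPM in wild type 1 to 5 and 151, 147, 89.8 and 156 CPM in SMA 1 to 4, where SMA 3 was the lowest library and SMA 4 overlapped with wild type 4. The fall of Tmod1 was lost with sex as a covariate, at an adjusted p of 0.0600 by edgeR, and both falls were lost with scaling to total counts. The ratio of Tmod4 to Tmod1 did not separate the groups, with mean log2 count ratios of 1.22 ± 0.21 to 1.42 ± 0.33 (exact permutation test, exact p = 0.349, adjusted p = 0.349 over the 7 pairs).

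Leiomodins promote growth of the thin filament. Lmod3, the skeletal form, went from 183 ± 18.7 to 141 ± 14.3 CPM (SD, n = 5 and 4), a fall of 0.37 ± 0.10 on the log2 scale (adjusted p = 0.00768 by edgeR) without overlap. Lmod2, the form best known from heart, measured 114, 81.5, 92.0, 68.5 and 84.4 CPM in wild type 1 to 5 and 165, 169, 72.9 and 125.5 CPM in SMA 1 to 4. SMA 1, 2 and 4 were above all of wild type, and SMA 3 was near the lower end of it. Lmod2 rose by 0.60 ± 0.22 with an adjusted p of 0.0340 by edgeR, and lost the call in limma-voom (0.0573) and without any 1 of the libraries wild type 2 to 5 or SMA 1, 2 or 4 (0.0528 to 0.116 by edgeR). The length-scaled ratio of Lmod3 to Lmod2 was 1.59, 1.77, 1.87, 2.14 and 2.01 in wild type 1 to 5 and 0.833, 0.790, 1.497 and 0.980 in SMA 1 to 4. It was lower in all 4 SMA libraries than in any wild type library, and SMA 3 was the closest to wild type. The mean log2 count ratio went from 1.06 ± 0.16 to 0.15 ± 0.42 (exact p = 0.00794, adjusted p = 0.0111 over the 7 pairs).

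Of the 2 genes for intermediate filaments that tie neighbouring Z-discs together, Synm fell and Des did not pass. Des, which encodes desmin (chromosome 1, 75360329 to 75368579, plus strand), measured 2379, 1965, 2218, 2157 and 2416 CPM in wild type 1 to 5 and 2395, 2283, 2242 and 2268 CPM in SMA 1 to 4. All SMA libraries lay within the wild type range. The log2 fold change of Des, 0.045 ± 0.096, did not pass and was -0.0029 without wild type 2. Synm, which encodes the desmin partner synemin (chromosome 7, 67730160 to 67759742, minus strand), measured 264, 187, 236, 206 and 401 CPM in wild type 1 to 5 and 59.8, 62.5, 47.0 and 62.2 CPM in SMA 1 to 4. Its SMA libraries lay between 47.0 and 62.5 CPM and none came near wild type. Synm fell by 2.16 ± 0.21 on the log2 scale, or 4.47-fold (adjusted p = 5.58e-06 by edgeR). Per kilobase Des ranked 4 in wild type and in SMA its level was 759 ± 22.3 CPM per kilobase, against 7.40 ± 0.945 for Synm. Des, Synm and Flnc are also expressed in smooth muscle, of whose 6 marker genes 1 rose, 1 fell and 4 did not pass. Their summed level was 577 to 962 CPM in wild type and 350.2 to 484 CPM in SMA. Most of the wild type sum was Acta2, the gene that fell, from a mean of 517 to 119 CPM. Tagln rose, and the smooth muscle myosin gene Myh11 did not pass. Myh11 lay at 36.3 to 47.5 CPM in wild type and 38.6 to 61.5 CPM in SMA. The part of smooth muscle in the levels of Des, Synm and Flnc was not tested.

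Both chaperone genes for myosin folding and assembly were lower. Smyd1, a muscle methyltransferase that acts with myosin chaperones (chromosome 6, 71213940 to 71322233, minus strand), measured 447, 308, 419, 320.2 and 496 CPM in wild type 1 to 5 and 203, 218, 211 and 213 CPM in SMA 1 to 4. The SMA libraries were within 14.6 CPM of each other and all below wild type. Smyd1 fell by 0.91 ± 0.14 on the log2 scale (adjusted p = 1.72e-04 by edgeR). Unc45b, the muscle chaperone of the myosin head, went from 237 ± 28.3 to 186 ± 13.4 CPM (SD, n = 5 and 4), a fall of 0.35 ± 0.10 on the log2 scale without overlap (adjusted p = 0.0121 by edgeR). The call for Unc45b was lost under scaling to total counts.

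Per kilobase of transcript, the order of abundance among the 40 changed. In wild type Actn3 was followed by Mybpc2, at 1534 ± 326 CPM per kilobase (SD, n = 5), and Myoz1, at 1480 ± 212, and the spreads of these 3 levels overlapped. Mybpc2 stood at rank 13 in SMA with 224 ± 32.7 CPM per kilobase (SD, n = 4). There Myoz1 came first with 1111 ± 55.1, and Tcap, which had ranked 9 in wild type with 379 ± 73.9, came second with 849 ± 209.9 CPM per kilobase. Actn2 and Des followed, and each lay within the SD of Tcap in SMA. At the other end stood Ankrd1 in both groups, with 3.67 ± 0.662 and 4.30 ± 0.540 CPM per kilobase.

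**Figure D4:**
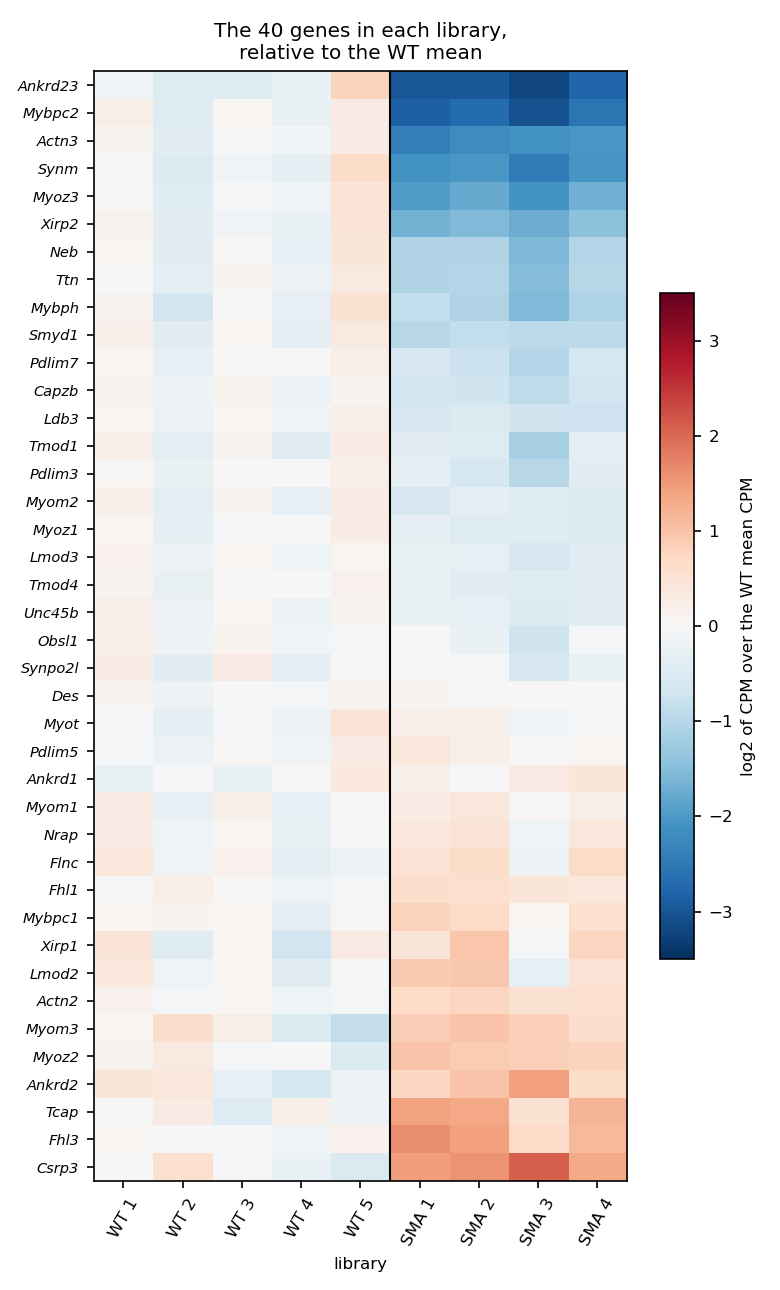
Log2 of each gene's CPM over its wild type mean, for the 40 genes (rows, ordered by fold change) in the 9 libraries (columns); blue is below and red above the wild type mean. The SMA columns are alike for the strongest falls, from Ankrd23 to Xirp2, and SMA 3 is lower than the other SMA columns for Tmod1, Lmod2 and Mybpc1.

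A further 60 genes outside the 40 moved in equal numbers. They are genes of the sarcomere and costamere and related cytoskeletal or chaperone genes, among them Vim and Hsp90aa1. Of these, 58 were tested, 17 rose, 17 fell and 24 did not pass, or 29.3% in each direction, close to the 27.7% and 27.2% of all genes. Nebl and Mybphl, both under 0.5 CPM, were too low to test. Under scaling to total counts 26 of the list rose and 12 fell, where 6385 of all genes rose and 2164 fell. Among genes of at least 5 CPM in a group, the rise was largest for Igfn1, an immunoglobulin-domain gene of the Z-disc, which went from 26.7 ± 13.2 to 132 ± 55.3 CPM (SD, n = 5 and 4). Trim63, whose ubiquitin ligase MuRF1 sits at the M-band, Fhl2, a LIM-domain relative of Fhl1 and Fhl3, and Mustn1 also rose, with log2 fold changes of 1.23 ± 0.21, 0.87 ± 0.15 and 0.72 ± 0.12. Largest among the falls was Fhod3, an actin-assembling formin of the sarcomere, from 31.5 ± 6.07 to 11.8 ± 1.47 CPM. Kbtbd13 fell by 1.31 ± 0.18, Capza2, the alpha subunit that pairs with Capzb, by 1.21 ± 0.12, the Z-disc gene Nexn by 1.14 ± 0.13 and Trim55, a relative of Trim63, by 1.12 ± 0.24 on the log2 scale. These 9 genes passed, with adjusted p-values by edgeR from 5.26e-06 for Capza2 to 0.00168 for Trim55.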

How the data were processed

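RNA of 9 libraries was measured by stranded mRNA sequencing, which selects polyadenylated RNA, with paired reads of 75 bases per the labels' protocols. The authors deposited whole-number counts per gene symbol and library, not normalized. Per the submitters' processing notes, HTSeq 0.9.1, DESeq2 1.16.1 and the build mm10 were used, with no role stated. The aligner, annotation and strand setting were not given in the sources used here, and a table normalized by the authors was not used. Per gene, the authors' counts were analysed with edgeR 4.0.16 in R 4.3.3: filterByExpr, scaling by trimmed means (TMM), a quasi-likelihood fit with group as its 1 term over all 9 libraries, and Benjamini-Hochberg adjustment over 15873 genes. SE is the log2 fold change divided by the square root of F. Alternatives used DESeq2 1.42.0 and limma 3.58.1. Ratios within pairs were compared by exact permutation of libraries, adjusted over 7 pairs. Positions and transcript lengths came from GENCODE M21 (mm10), and levels per kilobase use the longest coding transcript.

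Libraries of a group differed by more than sampling noise in every pair. The procedure was tested on simulated data, where it recovered 49.3% of 1.5-fold, 76.1% of 2-fold and 98.4% of 4-fold changes. It also called 9 unchanged genes. Only 69, 67 and 64 genes were changed at these folds, with 15718 tested, whereas 54.9% of genes passed in the data themselves. Recovery in the data may therefore differ from these shares. Changes near 1.5-fold can be missed. Sex, read from Xist and Y-linked genes, was male in 4 and female in 1 of the wild type libraries and male in 1 and female in 3 of the SMA libraries, so it is largely confounded with genotype. The members, role groups, pairs and lists were chosen with earlier results of these data known. All members were to be described, and outside them the 5 largest rises and falls of the list of 60 with at least 5 CPM in a group, of which 1 is not reported here.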

Additional observations from a re-analysis of the deposited data

Results flagged for a closer look

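In 6 of 94 groups of libraries tested (the 40 members and 7 ratios in each genotype), 1 library lay far from the rest of its group, where chance flags about 1 in 20. SMA 3 was the low library in 4 of them: Ttn was at 2900 CPM against 3970 to 4110 CPM in the other SMA libraries, Neb at 1360 against 1940 to 1970, Capzb at 202 against 229 to 234 and Tmod1 at 89.8 against 147 to 156. Ankrd23 was at 2230 CPM in wild type 5 against 960 to 1190 CPM in the other wild type libraries. Mybpc1 was at 1200 CPM in wild type 4 against 1540 to 1610. Ttn, Neb, Capzb and Tmod1 fell, Ankrd23 fell and Mybpc1 rose as well when each of these libraries was left out.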

How the results depend on the processing

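The count of 20 members that fell ranged from 14 to 20 over the 18 alternatives, and that of 10 members that rose from 9 to 18. Scaling to total counts gave the 18, and it also gave 6385 genes in all that rose, 2164 that fell and 26 of the other sarcomere genes that rose. Leaving out 1 library gave 20 members that fell each time and 9 to 13 that rose. Over all genes, 3739 to 4547 then fell and 3916 to 4535 rose. Reversals were limited to members that did not pass: Synpo2l at 0.053 under scaling to total counts, and Des at -0.0029 and Myot at -0.012 without wild type 2. Leaving out 1 library gave values of -0.0029 to 0.0745 for Des and -0.012 to 0.2026 for Myot. The cause was not tested. No pairing by replicate number was visible. Same-numbered libraries correlated at 0.118, -0.006, -0.048 and 0.097 in their deviations, and no number was best matched to itself. These few correlations cannot exclude a pairing. With the replicate block 18 members fell and 9 rose, where 3906 of all genes fell and 3972 rose. Lmod2, Myom2 and Tmod1 did not pass with it (adjusted p = 0.0606, 0.0702 and 0.0678 by edgeR). Across the 4 numbered pairs the log2 ratios differed by -2.72 for Actn3 to Actn2, -3.24 for Mybpc2 to Mybpc1, -1.12 for Myoz1 to Myoz2, -0.89 for Lmod3 to Lmod2, 2.11 for Xirp1 to Xirp2 and -0.63 for Myom2 to Myom1 under the replicate block, with an exact sign-flip p of 0.125, the smallest that 4 pairs allow. The 6 ratios that passed did so with 0.5 added to each count, as shares of the pair and without any 1 library. The choice of leaving out wild type 5 and SMA 3 together was made after seeing the data.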

Other observations

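Partners of the members, looked up after their values were seen, did not all move with them, and their directions held under every scaling run. These partners belong to the list of 60 and are already counted in its 17 rises and 17 falls. Capza1, the other alpha subunit of the capping protein, had a log2 fold change of -0.33 ± 0.069 (SE), beside -1.21 ± 0.12 for Capza2 and -0.73 ± 0.10 for Capzb, so all 3 CapZ subunits fell, though Capza1 had -0.0923 and did not pass under scaling to total counts. Of the kelch proteins known to stabilise nebulin and leiomodin 3, Klhl40 went from 188 ± 38.9 to 106 ± 17.3 CPM (SD, n = 5 and 4), a fall of 0.82 ± 0.15, while Klhl41 went from 493 ± 64.0 to 666 ± 65.3 CPM, a rise of 0.43 ± 0.11 on the log2 scale. Among intermediate filaments of immature or non-muscle cells, nestin (Nes) fell by 0.80 ± 0.10 and vimentin (Vim) rose by 0.48 ± 0.12, where Des itself did not pass. The small heat shock protein genes Cryab and Hspb7, whose products guard desmin and filamin, rose by 0.53 ± 0.11 and 0.68 ± 0.15, and the co-chaperone gene Bag3, which acts in filamin turnover, by 0.49 ± 0.088. Adjusted p-values by edgeR's quasi-likelihood test were 8.15e-04 for Klhl40, 0.00679 for Klhl41, 4.54e-05 for Nes, 0.00480 for Vim, 0.00192 for Cryab, 0.00194 for Hspb7, 5.82e-04 for Bag3 and 0.00175 for Capza1.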
